A study of Mus musculus with 4 samples.

Results

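The genes described here encode the 3 main families of phase II conjugating enzymes, the glutathione S-transferases (GST), the UDP-glucuronosyltransferases (UGT) and the sulfotransferases (SULT). They were selected by symbol, as *Gst* genes of the alpha, kappa, mu, omega, pi and theta classes, *Ugt1* and *Ugt2* genes, and *Sult* genes. Names marked as pseudogenes were left out, and a gene was kept if it had more than 10 counts in at least 2 of the 4 libraries. Of 61 names that matched, 32 were kept, among 13979 genes that passed the same filter and 36144 names in the table. These were 18 of 21 GST, 8 of 19 UGT and 6 of 21 SULT names. Of 8 pseudogene names, only *Gstp-ps* had counts, at most 18 in a library. Of the remaining names, 14 had no count in any library and 15 had counts that did not reach the threshold.

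Expression was measured by bulk RNA-seq of polyadenylated RNA from mouse colonic organoids (colonoids), which are 3-dimensional cultures of colonic epithelium grown from isolated crypts. Colonoids at passage 3 were left untreated or given 2 mM sodium butyrate, a short-chain fatty acid, and were sampled at 48 h (day 2) and 72 h (day 3). There was 1 library for each of the 4 conditions. The labels give a wild-type male mouse aged 24 weeks for all groups, whereas the study's figure legend for these data gives 1 Hes1-GFP reporter mouse, so the genotype is uncertain and was the same in all groups by either source. The study's methods describe crypts of the proximal colon. All cultures, the untreated ones included, grew in Matrigel in a medium with EGF, Noggin, R-spondin, the GSK3 inhibitor CHIR99021 and the ROCK inhibitor Y-27632. This medium keeps crypt progenitors in growth, and such cultures are started from crypts without the surrounding stroma.

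Phase II enzymes attach a polar group to drugs, dietary compounds and hormones, so that the conjugate can be exported from the cell. GSTs add glutathione to electrophiles, UGTs transfer glucuronic acid from UDP-glucuronic acid, and SULTs transfer sulfate from the donor PAPS. In the colon these enzymes stand between luminal xenobiotics and the body, and many of their genes are known targets of the antioxidant-responsive factor NRF2 (*Nfe2l2*) or of the aryl hydrocarbon receptor AHR. The mouse genes lie in clusters in the GRCm38 build, with the 3 pi class genes on chromosome 19 between 4035407 and 4059569, the 7 mu class genes on chromosome 3 between 107895821 and 108044894, and the *Ugt1a* genes on chromosome 1 between 88055388 and 88220002. The *Ugt1a* genes have separate first exons and share the others, and *Gstp1* and *Gstp2* are close copies of each other.

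The 250 bases upstream of the RefSeq start sites (GRCm38.p6) are shown for the 3 pi genes, 2 of which had the greatest log2 fold changes of all GST genes at 48 h, and for *Gstm5*, whose window holds matches to both response elements. Capitals mark matches that lie wholly within the printed bases, on either strand, to the core of the antioxidant response element (TGACNNNGC), to its wider form (TGANNNNGC), which includes every match to the former, and to the core of the xenobiotic response element bound by AHR (GCGTG). The wider form was added after the sequences were seen. In *Gstp3* a wider match that begins 7 bases before the start runs past the printed end and is not marked.

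Gstp1 upstream, chr19:4037913-4038162, minus strand: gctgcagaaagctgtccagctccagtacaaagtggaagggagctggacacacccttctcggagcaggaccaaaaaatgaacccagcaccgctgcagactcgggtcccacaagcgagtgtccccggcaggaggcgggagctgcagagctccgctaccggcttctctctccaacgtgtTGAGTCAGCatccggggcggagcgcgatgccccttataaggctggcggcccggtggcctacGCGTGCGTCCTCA
Gstp2 upstream, chr19:4042222-4042471, minus strand: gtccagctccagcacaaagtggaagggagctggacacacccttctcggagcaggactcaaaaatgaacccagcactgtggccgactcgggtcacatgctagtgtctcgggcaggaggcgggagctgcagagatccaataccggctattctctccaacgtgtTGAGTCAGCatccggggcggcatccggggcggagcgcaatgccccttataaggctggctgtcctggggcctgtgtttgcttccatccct
Gstp3 upstream, chr19:4059448-4059697, minus strand: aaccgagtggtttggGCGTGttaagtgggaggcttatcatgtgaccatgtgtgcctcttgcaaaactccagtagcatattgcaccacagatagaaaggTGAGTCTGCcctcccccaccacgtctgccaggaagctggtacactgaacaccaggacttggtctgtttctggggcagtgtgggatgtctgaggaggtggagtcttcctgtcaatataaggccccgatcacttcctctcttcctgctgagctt
Gstm5 upstream, chr3:107895604-107895853, plus strand: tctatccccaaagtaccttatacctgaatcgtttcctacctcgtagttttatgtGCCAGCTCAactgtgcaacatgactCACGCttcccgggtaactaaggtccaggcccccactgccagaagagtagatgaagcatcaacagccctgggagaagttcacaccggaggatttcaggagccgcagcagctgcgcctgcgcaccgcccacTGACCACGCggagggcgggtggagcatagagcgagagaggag

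The upstream sequences of *Gstp1* and *Gstp2* were identical at 78.5% of alignment columns and share an unbroken run of 43 bases. Against *Gstp3*, the identity was 50.7% for *Gstp1* and 51.9% for *Gstp2*. *Gstp1* and *Gstp2* share the match TGAGTCAGC, which begins 74 and 89 bases before the start. *Gstp1* also has the xenobiotic core 13 bases before its start. In *Gstm5* the antioxidant match TGACCACGC, 42 bases before the start, overlaps a xenobiotic match on the other strand. Windows of 300 bases, from 250 before to 50 after the start, were searched for 29 of the 32 genes, and those of *Gsta4*, *Gstt2* and *Sult4a1* were not analysed here. The narrower antioxidant core was in 3 of these 29 (10.3%), *Gsta3*, *Gstm5* and *Gstm7*, against 3781 of all 27025 genes with a window. In *Gsta3* the match was TGACATTGC. The wider form was in 18 of 29 (62.1%) against 45.0% of all genes, with 11 of 16 GST, 3 of 8 UGT and 4 of 5 SULT genes. The xenobiotic core was in 8 of 29 (27.6%) against 35.2%, with 5 of 16 GST, 0 of 8 UGT and 3 of 5 SULT genes. A match describes the letters of the window and does not show that a factor binds there.

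Library totals lay between 20790225 and 24207840 counts, and 14.1% to 18.4% of counts came from the mitochondrial genome. Counts were divided by DESeq2 size factors, here called normalised counts. Log2 fold changes were taken after adding a pseudocount of 1, and each is given with its 95% exact interval on the pair of counts. These intervals cover counting error only, because a single library per condition leaves no replicate error to compare with, and no p-values were computed. A gene is called here when it differed at least 2-fold. In bulk RNA, fewer cells that express a gene and less RNA per cell cannot be told apart. All 7 epithelial markers, among them *Epcam*, *Cdh1* and *Vil1*, passed the count filter, as did 1 of 5 immune, 1 of 5 stromal and 1 of 3 endothelial markers. These were *Itgam* with 36 to 48 counts per library, *Pdgfra* with 9 to 13 and *Pecam1* with 20 to 45, and *Col3a1* was the only marker of these 3 lists with no counts.

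At 48 h, 15 of the 32 conjugating genes (46.9%) were at least 2-fold higher in butyrate-treated colonoids, against 6.94% of all genes tested. They were 10 of 18 GST, 3 of 8 UGT and 2 of 6 SULT genes. With genes that share reads summed, the 3 pi genes as a single entry, 8 GST entries were at least 2-fold higher, out of fewer than 18. Only *Sult1c2* was at least 2-fold lower, 1 of 32 against 3.08% of all genes. At 72 h, 4 genes were at least 2-fold higher, against 4.53% of all genes, and 3 were at least 2-fold lower, against 3.78%. The 4 higher genes, *Gstt1*, *Ugt1a2*, *Sult1a1* and *Sult4a1*, were those higher at both times, against a background of 2.55%. No gene of the 3 families was 2-fold lower at both times, against 0.887% of all genes. Of the 32 genes, 22 had at least 80% of their 31-base words unique to the gene and 7 were under 50%, and for the latter the split of reads between copies could shift the values. *Ugt1a2*, with 5 and 14 counts at 48 h, then 5 and 18 at 72 h, was just inside the count threshold. It passed the filter only through the butyrate libraries, and its interval at 48 h (−0.24 to 3.14) held 0. Without it, 14 of 31 genes (45.2%) were at least 2-fold higher at 48 h, 2 of them UGT, and 3 of 31 (9.68%) at 72 h and at both times, none of them UGT. Of the 32 genes, 30 had more than 10 counts in every library.

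**Figure D1:**
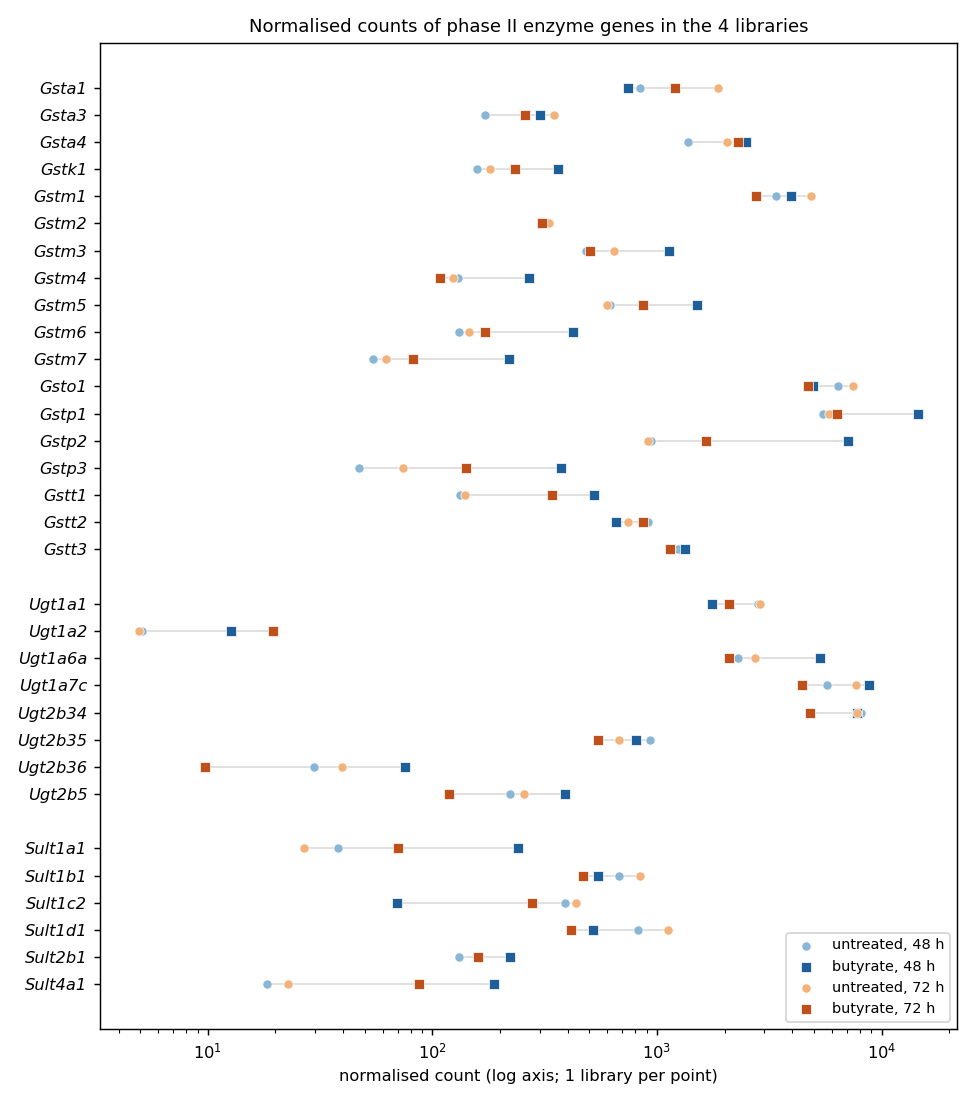
Normalised count of each of the 32 genes in each library, on a log axis. Circles are untreated and squares butyrate-treated colonoids, blue for 48 h and orange for 72 h, and each point is 1 library. The dark blue squares (butyrate, 48 h) are the highest point for the 3 pi genes, at 14605 for *Gstp1*, 7057 for *Gstp2* and 373 for *Gstp3*.

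The pi class had the highest summed count of the GST classes with butyrate at 48 h. In counts per 1000000 (CPM), its sum was 295 untreated and 1003 CPM with butyrate at 48 h, then 292 and 362 CPM at 72 h. *Gstp1*, the main pi class enzyme and the most abundant GST per kb of exon, had normalised counts of 5511 untreated and 14605 with butyrate at 48 h, then 5813 and 6340 at 72 h. The butyrate library at 48 h stood apart from the other 3, and the log2 fold change was 1.41 (1.36 to 1.45) at 48 h against 0.13 (0.07 to 0.18) at 72 h. *Gstp2*, the adjacent close copy, had 939 and 7057 at 48 h, then 909 and 1647 at 72 h. The change on the log2 scale was 2.91 (2.81 to 3.01) at 48 h against 0.86 (0.74 to 0.98) at 72 h. *Gstp3* was much less abundant, with 47.0 and 373 at 48 h, then 74.1 and 140.4 at 72 h, and differed by 2.96 (2.55 to 3.46) and 0.91 (0.50 to 1.35). Both butyrate libraries were above both untreated libraries for each of the 3 genes.

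Reads of *Gstp1* and *Gstp2* could be divided between them by the quantification. Of the 31-base words of the *Gstp1* transcripts, 61.5% occur in no other gene, against 39.7% for *Gstp2* and 99.5% for *Gstp3*. The sum of *Gstp1* and *Gstp2* does not depend on that division, and was higher by 1.75 (1.71 to 1.79) at 48 h against 0.25 (0.20 to 0.30) at 72 h. Per kb of exon, *Gstp2* made up 6.07% of all GST signal without and 22.7% with butyrate at 48 h, then 4.72% and 9.62% at 72 h. *Gstp1* made up 25.6% and 33.7% at 48 h.

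The mu class, whose enzymes conjugate aromatic electrophiles and epoxides, had 7 genes, of which 5 were at least 2-fold higher with butyrate at 48 h and none at 72 h. *Gstm7* had normalised counts of 54.2 untreated and 219.6 with butyrate at 48 h, then 62.2 and 82.1 at 72 h, or 2.00 (1.58 to 2.48) on the log2 scale and 0.39 (−0.10 to 0.91). *Gstm6* had 132 and 424 at 48 h, then 145 and 172 at 72 h. Its log2 fold change was 1.68 at 48 h and 0.24 at 72 h. *Gstm5* had 621 and 1503 at 48 h, then 597 and 864 at 72 h. It was the only gene of this class with an interval above 0 at both times, at 1.27 (1.14 to 1.41) and 0.53 (0.38 to 0.69). *Gstm3* and *Gstm4* were higher at 48 h, by 1.22 and 1.05 on the log2 scale, and had values of −0.36 and −0.19 at 72 h, where the interval for *Gstm4* (−0.59 to 0.20) held 0.

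*Gstm1*, the most abundant mu gene, followed another course. Its normalised counts were 3401 untreated and 3958 with butyrate at 48 h, then 4874 and 2761 at 72 h. The log2 fold change was 0.22 (0.15 to 0.28) at 48 h against −0.82 (−0.89 to −0.75) at 72 h. It held most of the counts of its class in every library, and the summed mu class was higher by 0.61 at 48 h and lower at 72 h, at −0.50. Transcripts of *Gstm1* and *Gstm3* had 71.2% and 62.3% unique 31-base words, and the genes they share most with, *Gstm2-ps1* and *Gm8834*, had no more than 1 count in any library. *Gstm2*, chosen for mention after its values were seen, lay between 305.7 and 329.8 in all 4 libraries.

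The theta class had 3 genes, *Gstt1*, *Gstt2* and *Gstt3*. *Gstt1*, which acts on small halogenated compounds, was the only GST at least 2-fold higher at both times. It had 133 and 526 normalised counts at 48 h, then 139 and 339 at 72 h, with log2 fold changes of 1.98 (1.71 to 2.27) and 1.28 (0.99 to 1.58). *Gstt3*, its neighbour on chromosome 10, had 1238 and 1335 at 48 h, then 1160.2 and 1148 at 72 h, and its intervals held 0 at both times, with 0.11 (−0.00 to 0.22) and −0.02 (−0.14 to 0.11). *Gstt2* had 910.0 and 659 at 48 h, then 745 and 867 at 72 h. This was −0.47 (−0.61 to −0.32) at 48 h against 0.22 (0.07 to 0.36) at 72 h, the only conjugating gene lower at 48 h and higher at 72 h with both intervals excluding 0. The summed theta class was higher by 0.14 at 48 h and 0.20 at 72 h.

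*Gsto1*, an omega class enzyme with thioltransferase and dehydroascorbate reductase activity, was second among GST genes per kb of exon in the mean of the 4 libraries, although *Gstp2* and *Gstm1* were above it with butyrate at 48 h. Its normalised counts were 6410.2 and 4946 at 48 h, then 7459 and 4697 at 72 h, and both butyrate libraries were below both untreated libraries. The log2 fold change was −0.37 (−0.43 to −0.32) and −0.67 (−0.72 to −0.61). *Gstk1*, the mitochondrial and peroxisomal kappa enzyme, had 158 and 363 at 48 h, then 181 and 234 at 72 h, with log2 fold changes of 1.19 and 0.37. Of the alpha class, *Gsta3* had 172 and 301 at 48 h, then 349 and 259 at 72 h, with 0.81 (0.54 to 1.09) and −0.43 (−0.67 to −0.19). *Gsta1* and *Gsta4*, chosen for mention after their values were seen, differed from each other. *Gsta4*, which acts on the lipid peroxidation product 4-hydroxynonenal, was higher by 0.86 and 0.17. *Gsta1* had −0.18 and −0.63, but only 7.14% of its 31-base words are unique, since it shares 80.3% of them with *Gm3776*. The sum of *Gsta1* and *Gm3776* gave −0.20 and −0.65.

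**Figure D2:**
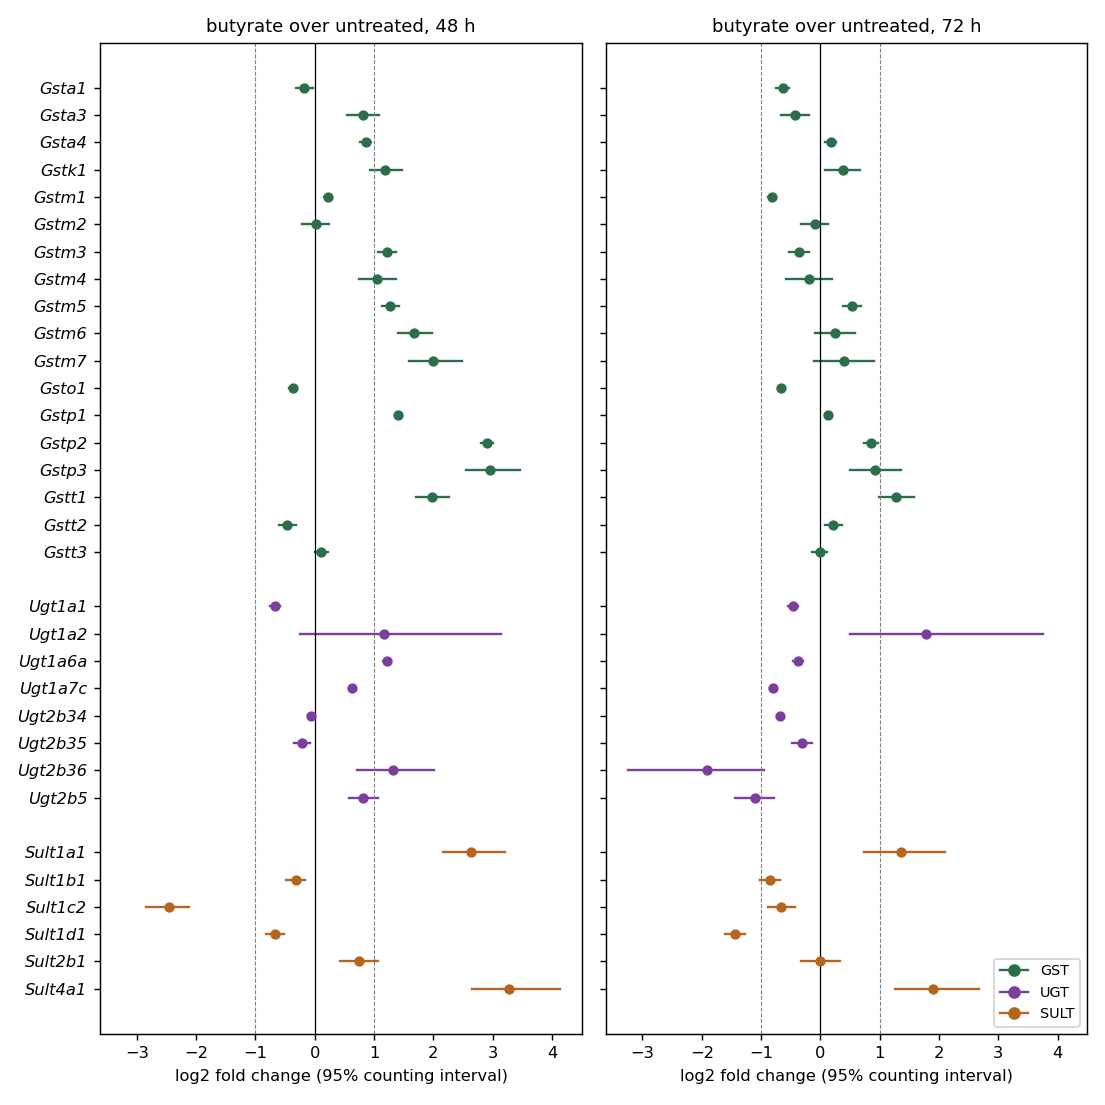
Log2 fold change of butyrate over untreated for each gene at 48 h (left) and 72 h (right). Points are single comparisons of 2 libraries, lines are 95% intervals for counting error, dashed lines mark a 2-fold difference, and colours mark the 3 families. At 48 h 10 GST points lie beyond the upper dashed line, and at 72 h 1 does.

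UGT genes were fewer, and their sum was below that of GST in each library. It was 913 CPM untreated and 1138 CPM with butyrate at 48 h, then 948 and 630 CPM at 72 h. *Ugt2b34*, which was first among UGT genes per kb of exon in the mean of the 4 libraries, with *Ugt1a7c* above it in butyrate at 48 h and untreated at 72 h, had normalised counts of 8112 and 7771 at 48 h, then 7743 and 4813 at 72 h. Only the butyrate library at 72 h stood apart, and the log2 fold change was −0.06 (−0.11 to −0.02) at 48 h against −0.69 (−0.74 to −0.63) at 72 h. *Ugt2b5* had 222 and 391 at 48 h, then 257 and 119 at 72 h, with log2 fold changes of 0.81 (0.58 to 1.06) and −1.11 (−1.45 to −0.78). Only 43.6% of its 31-base words are unique, and it shares 44.9% with *Ugt2b38*. To that gene 0 and 3 counts were assigned at 48 h, then 0 and 0 at 72 h. *Ugt2b36*, chosen after its values were seen, had 29 and 83 counts at 48 h, then 40 and 9 at 72 h, with 1.32 (0.72 to 2.01) and −1.92 (−3.25 to −0.96). The low counts make the size of this reversal imprecise. *Ugt2b35*, chosen after its values were seen, was slightly lower at both times, by −0.21 and −0.32.

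Of the *Ugt1a* genes, *Ugt1a1* encodes the enzyme that conjugates bilirubin, and *Ugt1a6a* and *Ugt1a7c* encode enzymes that act on phenols. *Ugt1a6a* had normalised counts of 2289 and 5341 at 48 h, then 2736 and 2099.6 at 72 h, with log2 fold changes of 1.22 (1.15 to 1.29) and −0.38 (−0.47 to −0.30). *Ugt1a7c* had 5737 and 8826 at 48 h, then 7734 and 4439 at 72 h, with 0.62 (0.57 to 0.67) and −0.80 (−0.86 to −0.75). For both, the butyrate library was the highest of the 4 at 48 h and the lowest at 72 h. *Ugt1a1* had 2817 and 1763 at 48 h, then 2877 and 2095 at 72 h, and was lower at both times, by −0.68 (−0.76 to −0.59) and −0.46 (−0.54 to −0.37). Since these genes share exons, only 18.7% of the 31-base words of *Ugt1a1*, 47.0% of *Ugt1a6a* and 44.3% of *Ugt1a7c* are unique, and their separate values depend on how reads were divided. The sum over all 9 *Ugt1a* names was higher by 0.56 (0.52 to 0.59) at 48 h and lower, at −0.63 (−0.67 to −0.59) at 72 h. With the *Ugt1a* names taken as a single gene, 1 UGT gene was at least 2-fold higher at 48 h rather than 3, and 0 at 72 h rather than 1.

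SULT genes were far less abundant in sum, at 94.4 CPM untreated and 81.1 CPM with butyrate at 48 h, then 112 and 65.7 CPM at 72 h. The 3 genes most abundant per kb of exon in the mean of the 4 libraries were lower with butyrate at both times, and 2 scarcer genes were higher. *Sult1d1*, which sulfates catecholamines and other phenols, was the most abundant per kb of exon, with 825 and 518 normalised counts at 48 h, then 1122 and 415 at 72 h. Its log2 fold change was −0.67 (−0.83 to −0.52) and −1.43 (−1.61 to −1.27). *Sult1b1*, which acts on thyroid hormone and small phenols, had 679 and 544 at 48 h, then 842 and 467 at 72 h, with −0.32 (−0.48 to −0.16) and −0.85 (−1.02 to −0.68). *Sult1c2* had 390 and 69.9 at 48 h, then 437 and 276 at 72 h, with −2.46 (−2.85 to −2.12) and −0.66 (−0.89 to −0.44). For all 3 genes both butyrate libraries were below both untreated libraries.

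*Sult1a1*, the phenol sulfotransferase, and *Sult4a1*, a member best known from brain, were higher with butyrate at both times. *Sult1a1* had 37.8 and 240.4 normalised counts at 48 h, then 26.7 and 70.2 at 72 h, with log2 fold changes of 2.64 (2.17 to 3.21) and 1.36 (0.73 to 2.10). *Sult4a1* had 18 and 207 counts at 48 h, then 23 and 81 at 72 h, with 3.28 (2.65 to 4.13) and 1.90 (1.26 to 2.68), the highest value of the 32 genes at each time. Per kb of exon, the share of *Sult1a1* in the SULT signal was 2.93% untreated and 21.7% with butyrate at 48 h, that of *Sult4a1* 0.855% and 10.2%, and that of *Sult1c2* 24.6% and 5.15%. At 72 h the shares were 1.66% and 7.66% for *Sult1a1*, 0.85% and 5.73% for *Sult4a1*, and 22.3% and 24.6% for *Sult1c2*. *Sult2b1*, a cholesterol sulfotransferase named after its values were seen, was higher by 0.74 (0.43 to 1.07) at 48 h, and its interval at 72 h (−0.33 to 0.33) held 0.

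**Figure D3:**
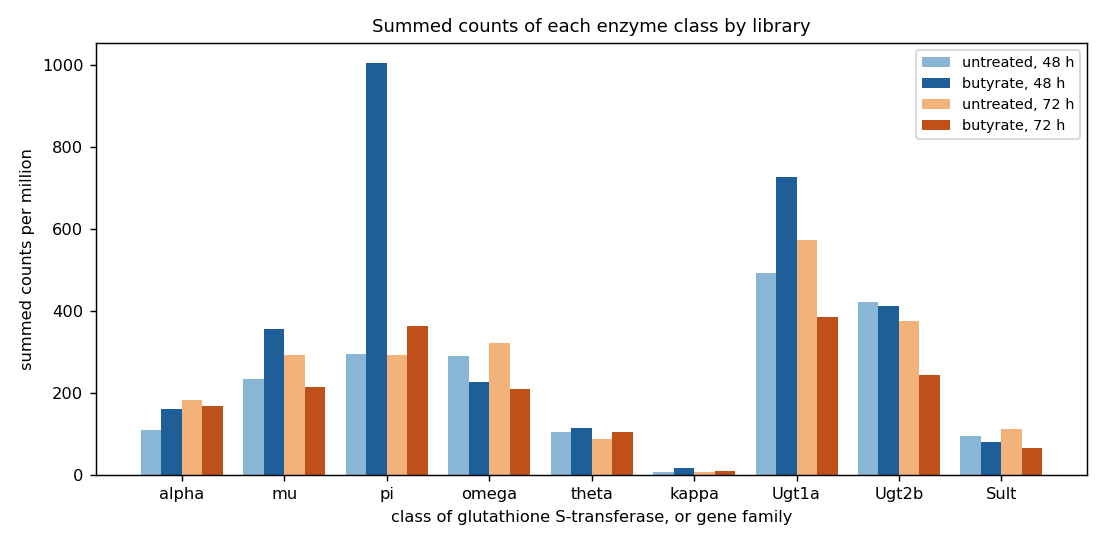
Summed counts per 1000000 counts (CPM) of each GST class, of the *Ugt1a* and *Ugt2b* genes and of all *Sult* genes, in each of the 4 libraries (1 bar per library, no error bars because there are no replicates). The pi class with butyrate at 48 h, at 1003 CPM, is above every other bar.

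The 3 families differed in the balance of directions. The median log2 fold change at 48 h was 1.12 for GST, 0.72 for UGT and 0.21 for SULT, against −0.01 over all genes. At 72 h it was 0.15 for GST, −0.57 for UGT and −0.33 for SULT, against 0.00. The UGT median at 48 h was 0.28 without *Ugt1a2* and *Ugt2b36*, the UGT genes with a mean under 50 normalised counts. With names of at least 1 count kept, the SULT medians were 0.41 at 48 h and 0.0 at 72 h. With read-sharing genes summed, the GST median at 72 h was 0.08. Summed over each family, the log2 fold change at 48 h was 0.85 (0.83 to 0.87) for GST, 0.31 (0.28 to 0.34) for UGT and −0.22 (−0.31 to −0.13) for SULT. At 72 h the sums gave −0.20 (−0.22 to −0.17), −0.64 (−0.67 to −0.61) and −0.82 (−0.92 to −0.73). The median and the sum thus had opposite signs for SULT at 48 h and for GST at 72 h. With counting intervals that excluded 0, 13 GST genes were higher and 3 lower at 48 h, and 8 higher and 5 lower at 72 h. The same counts were 4 and 3, then 1 and 7, for UGT, and 3 and 3, then 2 and 3, for SULT. The only UGT gene higher at 72 h was *Ugt1a2*, with 5 and 18 counts, which passed the filter only through the butyrate libraries. Of all genes tested, 29.3% had intervals above 0 and 31.3% below 0 at 48 h, and 25.9% and 26.4% at 72 h. Members of a family are not replicates, and the difference between families was not tested.

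The log2 fold change was lower at 72 h than at 48 h for 28 of the 32 genes, 17 of 18 GST, 6 of 8 UGT and 5 of 6 SULT, against 6990 of all 13979 genes. Normalised counts were lower in the butyrate library at 72 h than in that at 48 h for 27 of the 32, against 7165 of 13979. Of the 32 genes, 9 had intervals above 0 at both times, 7 of them GST and 2 SULT, and 8 had intervals below 0 at both times, against 12.9% and 13.6% of all genes. A further 7 were higher at 48 h and lower at 72 h with both intervals excluding 0, against 4.54% of all genes, and *Gstt2* was the reverse, against 5.33%. Each time point has its own untreated library, and the difference between the times was not tested.

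**Figure D4:**
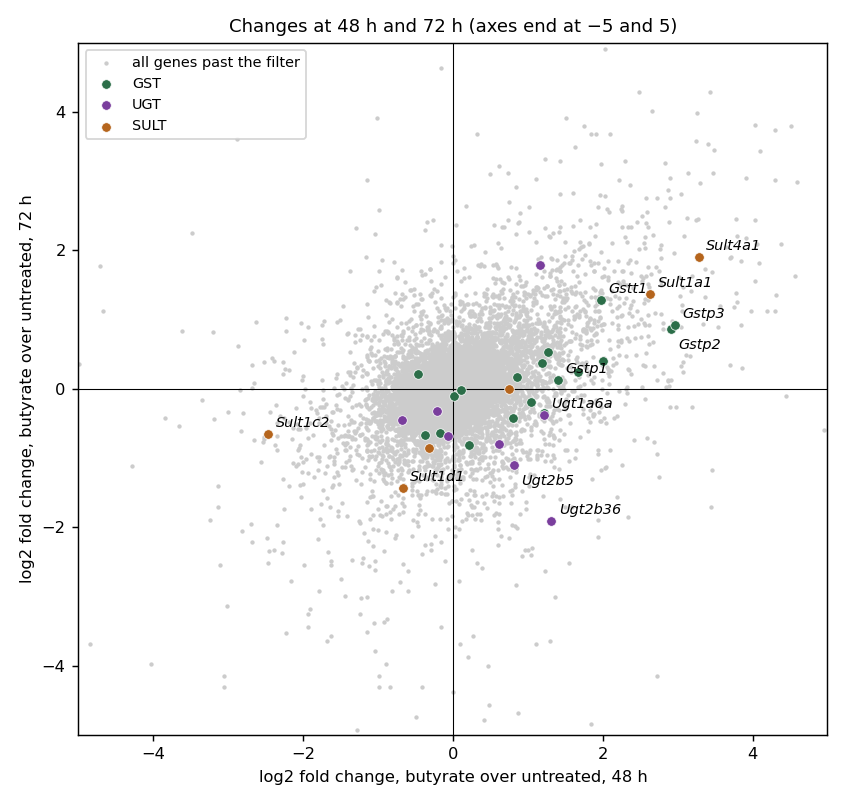
Log2 fold change at 48 h against that at 72 h, each point a gene, with the 3 families in colour over all 13979 genes in grey (30 of these lie outside the axes). *Sult4a1*, at 3.28 and 1.90, is the coloured point farthest to the upper right, and *Ugt2b36*, at 1.32 and −1.92, the lowest.

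The 2 untreated libraries give a yardstick, although they also differ by a day of culture. Between them 2 of the 32 genes were at least 2-fold higher at 72 h, *Gsta1* (1.15) and *Gsta3* (1.02), against 2.66% of all genes, and 0 were at least 2-fold lower, against 1.82%. The sum of *Gsta1* and *Gm3776*, which share reads, gave 0.99, under 2-fold. For *Gsta1* and *Gsta3* alike the difference between untreated libraries was larger in size than that with butyrate at either time. The change with butyrate was larger in size than that between untreated libraries for 26 of 32 genes at 48 h (81.2%), against 63.2% of all genes. At 72 h this held for 23 of 32 (71.9%), against 58.2%. The 2 changes compared share an untreated library, so they are not independent.

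Genes that supply the 3 cofactors were mostly higher with butyrate at 48 h and lower at 72 h, and none differed 2-fold at either time. Of all genes, 6.94% were at least 2-fold higher and 3.08% lower at 48 h, and 4.53% and 3.78% at 72 h. For these and the other pathway and marker lists, higher and lower genes were counted where intervals excluded 0, as in 29.3% and 31.3% of all genes at 48 h and 25.9% and 26.4% at 72 h. Of 5 genes for glutathione supply, 4 were higher at 48 h (median 0.32) and 3 lower at 72 h (median −0.10). Among them *Gclc*, the catalytic subunit of the first enzyme of glutathione synthesis, differed by 0.50 (0.44 to 0.56) and −0.74 (−0.79 to −0.68). Its count was also higher in the untreated library at 72 h than at 48 h, by 1.05. All 3 genes for UDP-glucuronic acid supply were higher at 48 h (median 0.35) and lower at 72 h (median −0.66), including *Ugdh*, which makes UDP-glucuronic acid, at 0.35 and −0.69. Of 4 genes for PAPS supply, 3 were higher at 48 h (median 0.39) and 3 lower at 72 h (median −0.26). *Papss1* was lower at both times, at −0.33 and −0.62, and *Papss2* higher at both, at 0.40 and 0.08. Both make PAPS. Of 6 efflux transporters, all were higher at 48 h (median 0.39) and 4 lower at 72 h (median −0.45). Among them *Abcc1*, which exports glutathione conjugates, was higher at both times, by 0.49 and 0.46.

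**Figure D5:**
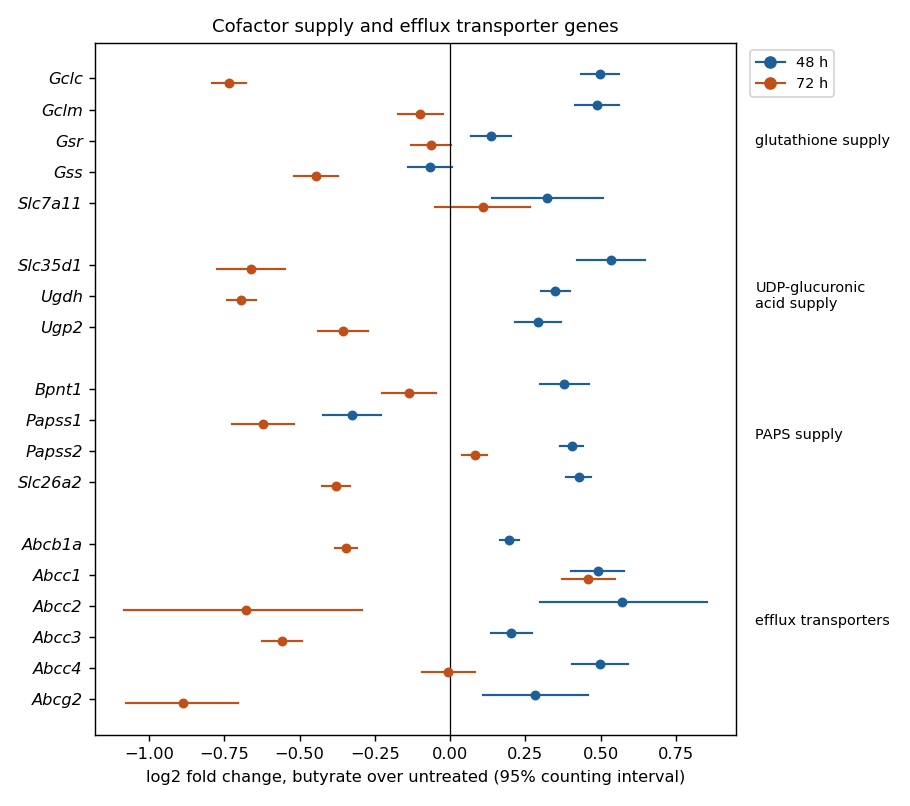
Log2 fold change of butyrate over untreated at 48 h (blue) and 72 h (orange) for genes of cofactor supply and efflux. Lines are 95% counting intervals, from 1 library per condition. All 6 efflux transporters lie above 0 at 48 h, and all 3 UDP-glucuronic acid genes lie below 0 at 72 h.

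Other conjugating enzymes outside the 3 families, of which 8 of 10 passed the filter, had medians of −0.03 and −0.22. Among them *Hpgds*, a sigma class GST that makes prostaglandin D2 and is a gene of tuft cells in the gut, had 464 and 272 normalised counts at 48 h, then 470.0 and 145 at 72 h, or −0.77 and −1.69. Of 5 listed enzymes that act on formed conjugates, 4 were analysed, *Gusb*, *Ggt1*, *Ggt6* and *Dpep1*. All 4 were higher at 48 h (median 0.51), with 2 lower and 0 higher at 72 h (median −0.15). At 48 h *Gusb* was higher by only 0.11 (0.04 to 0.19), and *Ggt1* had 11 and 34 counts. Medians of the regulators were −0.11 and −0.35, and 5 of 9 were lower at 48 h and 7 of 9 at 72 h, with 1 higher at each time. *Nr1i3*, a xenobiotic-sensing nuclear receptor, was the only regulator at least 2-fold lower at both times, with 33 and 18 counts at 48 h, then 39 and 8 at 72 h, and with intervals of −1.96 to −0.18 and −3.46 to −1.04. *Nfe2l2* was at −0.11 and −0.24, its inhibitor *Keap1* at −0.29 and −0.15, and *Ahr* at −0.26 and −0.39, 3 genes named for their roles. *Ppara*, a lipid-sensing nuclear receptor, was at 0.35 (−0.04 to 0.75) and −1.01 (−1.45 to −0.60).

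Markers of epithelial cell types also differed between these libraries. The median of the colonocyte list stood at 0.65 at 48 h and at −0.44 at 72 h, with 4 of 6 genes higher and 1 lower at 48 h and 5 lower at 72 h. The intervals of the other gene, *Aqp8*, held 0 at both times. The goblet list had medians of −0.18 and −0.83, with 2 of 8 genes higher and 4 lower at 48 h and 7 lower at 72 h. The enteroendocrine list had 0.04 and −0.81, with 1 of 5 higher and 1 lower at 48 h and all 5 lower at 72 h. The tuft list had −0.24 and −1.68, with 0 of 3 higher or lower at 48 h and all 3 lower at 72 h. The stem list had −0.22 and 0.66, with 1 of 4 higher and 3 lower at 48 h and all 4 higher at 72 h, and the proliferation list 0.06 and 0.41, with 3 of 4 higher at each time. Of 4 small intestinal enterocyte markers 2 passed, with a median of 0.70 and −1.77. The immune, stromal and endothelial markers together summed to between 98.0 and 134.3 normalised counts per library. Whether the mix of cell types had a part in the changes of the conjugating genes was not tested.

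Just outside the count threshold were *Gsto2*, with 3 and 24 counts at 48 h, then 2 and 10 at 72 h, and *Ugt1a6b*, with 3 and 10 at 48 h, then 13 and 0 at 72 h. *Ugt1a5* had 0 and 3, then 11 and 0, and *Gsta2* had 4 and 5, then 29 and 4. A floor of 3 counts corresponds to between 0.124 and 0.144 CPM in these libraries, so that the 14 names without counts were not detectable at this depth.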

How the data were processed

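RNA-seq libraries of untreated and butyrate-treated colonoids at 48 h and 72 h were analysed, 1 per condition. The authors deposited estimated counts per gene, made with kallisto 0.44.0 on GRCm38.p6 (per the submitters' processing notes), summed to genes with tximport and rounded to whole numbers, with no filter and no normalisation. The annotation release is not given in the sources used here, and reads of near-identical genes are divided by estimation. All 4 sample columns were used.

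Following the study's methods, a gene needed over 10 counts in at least 2 libraries. Size factors came from DESeq2 1.42.0 and, as an alternative, TMM factors from edgeR 4.0.16 in R 4.3.3. Other steps used Python 3.11.15, numpy 2.4.6, pandas 2.3.3 and scipy 1.17.1, with matplotlib 3.10.9 for plots. Log2 fold changes had a pseudocount of 1, and intervals were exact Clopper-Pearson intervals at 95%. The libraries carry no molecular identifiers and reads may be copies of 1 molecule, hence the intervals, and the detection floor of 3 counts, express counting error alone. No p-values were computed.

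Exon lengths, positions and 31-base words unique to a gene came from GENCODE vM21 (GRCm38), matched by symbol for all 32 genes, and promoters from RefSeq (GRCm38.p6). Promoter identity came from a global alignment of the 250 bases. The calculation was tested on simulated counts. The genes, pathway lists and marker lists were chosen with earlier results of these data known. Named genes were the 3 of each family highest per kb of exon, genes at least 2-fold changed or of opposite sign at both times with intervals excluding 0 plus a mean of 50 or more normalised counts, and those next to the count threshold. Alternatives were TMM, total count scaling with and without mitochondrial genes, a pseudocount of 5, other count filters, summing of genes that share reads and, chosen after seeing the data, leaving out *Ugt1a2*. The study's imaging and cell line experiments were not used here.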

Additional observations from a re-analysis of the deposited data

Results flagged for a closer look

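Several results had opposite directions at the 2 times, with counting intervals that excluded 0 at both, and the differences between 48 h and 72 h were not tested. On the log2 scale, the summed GST count was higher by 0.85 at 48 h and stood at −0.20 at 72 h. For the summed UGT count these values were 0.31 and −0.64. Among GST genes, *Gsta3* had 0.81 and −0.43, *Gstm1* 0.22 and −0.82, and *Gstm3* 1.22 and −0.36. *Gstt2* had the reverse order, with −0.47 and 0.22. Among UGT genes, *Ugt1a6a* had 1.22 and −0.38, *Ugt1a7c* 0.62 and −0.80, *Ugt2b5* 0.81 and −1.11, and *Ugt2b36* 1.32 and −1.92. *Ugt1a6a* and *Ugt1a7c* share exons, so their values are not independent of each other. Each value compares 2 single libraries.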

How the results depend on the processing

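No paired analysis was possible because no groups share 2 replicate numbers, with 1 library per condition, and none could be left out. A fit with time as the block, which would take the 2 times as replicates, was not run. With TMM factors, total count scaling (with or without mitochondrial genes) and a pseudocount of 5, the log2 fold changes of the 32 genes stayed within their counting intervals. The near-zero 72 h values of *Gstt3* and *Sult2b1* turned from −0.02 to 0.04 and from −0.00 to 0.05 under total count scaling. That scaling moved the summed GST and UGT counts at 72 h to −0.15 and −0.59, and the median of all genes to 0.05. Without mitochondrial genes in the total, the sums in the order untreated and butyrate at 48 h, then at 72 h, were 1222, 2184, 1447 and 1275 CPM for GST, 1076, 1324, 1161 and 752 CPM for UGT, and 111, 94.4, 137 and 78.5 CPM for SULT. With names of at least 1 count kept, the UGT median at 48 h was 0.99 and the SULT medians 0.41 at 48 h and 0.0 at 72 h. GST genes at least 2-fold higher were then 2 at 72 h and 2 at both times, and 1 was lower at 72 h. UGT genes were then 7 higher and 1 lower at 48 h and 4 lower at 72 h, and 3 SULT genes were lower at 48 h. With a mean of at least 50, the UGT median at 48 h was 0.28 in place of 0.72, and UGT genes were 1 higher at 48 h, 0 higher and 1 lower at 72 h, and 0 at both. With read-sharing genes summed, which leaves fewer genes, the GST medians were 0.95 and 0.08 in place of 1.12 and 0.15. In GST, 8 genes were then higher at 48 h in place of 10. The UGT medians were 0.56 and −0.69, with 1 higher at 48 h, 0 at 72 h and 0 at both. Without *Ugt1a2*, an alternative chosen after seeing the data, they were 0.62 and −0.69, with 2 higher at 48 h, 0 at 72 h and 0 at both. With a pseudocount of 5, 0 UGT genes were higher at both times. The counts and the 48 h median of UGT genes thus rest on *Ugt1a2* and *Ugt2b36*, which have few counts, and on the division of *Ugt1a* reads.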
